A study of Mus musculus with 4 samples.

Results

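Ventral-type CA1 neurons with Dcn and Col5a2 were taken from single-nucleus RNA sequencing of mouse hippocampus by a rule on 11 genes. A barcode was a member where it held at least 5000 unique molecular identifiers (UMIs, tags that count single RNA molecules), at least 1 UMI of 3 or more of the genes Dcn, Col5a2, Meis2, Adamtsl1, Ndst3 and Bmpr1b, and a sum of at least 5 UMIs over the first 4 of these genes. It also had to hold at least 1 UMI of Slc17a7 (the vesicular glutamate transporter of excitatory neurons), at most 1 of Prox1 (dentate granule neurons), at most 1 of Gad1 and Gad2 together (inhibitory neurons) and at most 2 of Tshz2. The rule took 2592 of 32572 nuclei with at least 5000 UMIs. The levels of these 11 genes chose the nuclei and are therefore a description, with no test.

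The study compared nuclei from the hippocampus of adult mice in 2 groups of 2 libraries. Control mice were Kat6a-f/f, with both copies of Kat6a flanked by loxP sites, and Kat6a-cKO mice carried NEX-cre in addition to Kat6a-f/f. The floxed allele was therefore shared by both groups, and NEX-cre was present in Kat6a-cKO only. NEX-cre is a Cre recombinase placed at Neurod6, a gene of forebrain excitatory neurons, so Cre itself and the altered Neurod6 locus cannot be told apart from the loss of Kat6a in this comparison. The labels give no batch, day, litter or sex, and do not say that the replicates were separate animals, so p-values measure the spread between these libraries.

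CA1 pyramidal neurons are the main output neurons of the hippocampus, and they differ along its long axis. Dorsal CA1 is known for its part in spatial memory, whereas ventral CA1 projects to the amygdala, the hypothalamus and the prefrontal cortex and is known for its part in anxiety and social behaviour. Kat6a is a histone acetyltransferase that works in a complex with Brpf1, Brd1, Ing5 and Meaf6 and acts on chromatin at developmental genes.

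The libraries held 171323466 to 186897245 counts, 7911 to 8442 nuclei with at least 5000 UMIs, and a median of 13924 to 14666 UMIs per nucleus. Members numbered 637 in Control 1, 601 in Control 2, 760 in Kat6a-cKO 1 and 594 in Kat6a-cKO 2, with a median of 22602, 21037, 20288.5 and 20093.5 UMIs. Scrublet, a caller of droplets with 2 nuclei, marked 3.30%, 3.99%, 4.21% and 4.04% of them, and they were kept. No member barcode was shared between libraries, against 101 barcodes shared by any 2 libraries among all nuclei. The nuclei compared with the members are dorsal-type CA1 nuclei (2244, chosen by a rule that uses Wfs1, Fibcd1, Mpped1, Man1a and Pou3f1 among its genes) and CA3 nuclei (1935), of which 39 met both rules. Both classes were limited to nuclei with at most 2 UMIs over Dcn, Col5a2, Meis2 and Adamtsl1 together, and the dorsal-type nuclei also to at most 2 of Cpne4. The low levels of these genes given for them below are therefore set by their rules.

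Kat6a-cKO 1 stood apart from the other libraries in the make-up of its members. Some of the results that rest on it are given with and without it, and others only with it. It held the largest number of members and the smallest number of dorsal-type CA1 nuclei, 407 against 534, 621 and 682 in Control 1, Control 2 and Kat6a-cKO 2. One group of its members (sub-cluster 5 below) made up 16.3% of them, against 7.32% to 8.01% in the other libraries. Of the other large sub-clusters, sub-cluster 2 made up 11.8%, 11.98%, 17.5% and 17.0% of the members of Control 1, Control 2, Kat6a-cKO 1 and Kat6a-cKO 2, and sub-cluster 3 made up 20.3%, 14.98%, 10.1% and 12.5%. The groups did not overlap for either, nor for sub-clusters 9, 12, 15 and 16 of the 16. With 2 libraries a group such gaps are common, and they were seen for 37.5% of the genes tested in all members. No change of make-up with genotype is therefore read from them. Counts summed over the members do mix sub-clusters in shares that vary between libraries.

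Dcn encodes decorin, a small leucine-rich proteoglycan of the extracellular matrix (mm10, chromosome 10: 97479609 to 97518143, plus strand). It stood at 26.9, 27.8, 49.1 and 27.8 CPM (counts scaled to a sum of 1000000 per library and class) in the members of Control 1, Control 2, Kat6a-cKO 1 and Kat6a-cKO 2, the order in which library values are given throughout. The high value was that of Kat6a-cKO 1. In dorsal-type CA1 nuclei it reached 0.613, 0.955, 0 and 0.599 CPM, and in CA3 nuclei at most 0.774 CPM.

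Col5a2 encodes a chain of type V collagen (chromosome 1: 45374321 to 45503282, minus strand). Its level in the members was 18.2, 20.4, 14.6 and 24.6 CPM, against 0.764 to 1.64 CPM in dorsal-type CA1 nuclei. The groups overlapped for Col5a2. For Dcn the 2 Kat6a-cKO values were above the Control values, but Kat6a-cKO 2 and Control 2 were both 27.8 CPM when rounded.

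Meis2, a TALE homeodomain transcription factor (chromosome 2: 115863064 to 116065839, minus strand), stood at 232, 229, 240 and 203 CPM in the members, at 46.5 to 53.4 CPM in dorsal-type CA1 nuclei and at 10.6 to 15.8 CPM in CA3 nuclei. Adamtsl1, a secreted ADAMTS-like protein without the protease domain (chromosome 4: 85514172 to 86428385, plus strand), stood at 286, 263, 285 and 259 CPM, against 6.42 to 8.28 CPM in dorsal-type CA1 nuclei. These are the genes through which most nuclei entered. Bmpr1b, a type I receptor for bone morphogenetic proteins (chromosome 3: 141837136 to 142169425, minus strand), stood at 67.6, 84.4, 55.6 and 57.0 CPM, against 7.93 to 8.59 CPM in dorsal-type CA1 nuclei. Ndst3, an enzyme that modifies heparan sulfate chains (chromosome 3: 123526166 to 123690853, minus strand), stood at 492, 443, 562 and 474 CPM in the members. Of the 6 genes it differed least from dorsal-type CA1 nuclei, at 310 to 382 CPM, but it was at 64.0 to 84.4 CPM in CA3 nuclei. Bmpr1b was at 22.5 to 37.9 CPM in CA3 nuclei. In all nuclei outside the members Dcn stood at 1.64 to 3.65 CPM, Col5a2 at 3.16 to 4.38 CPM and Meis2 at 47.4 to 58.7 CPM. Adamtsl1 stood there at 60.2 to 68.4 CPM, Ndst3 at 138 to 169 CPM and Bmpr1b at 10.7 to 13.8 CPM.

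**Figure D1:**
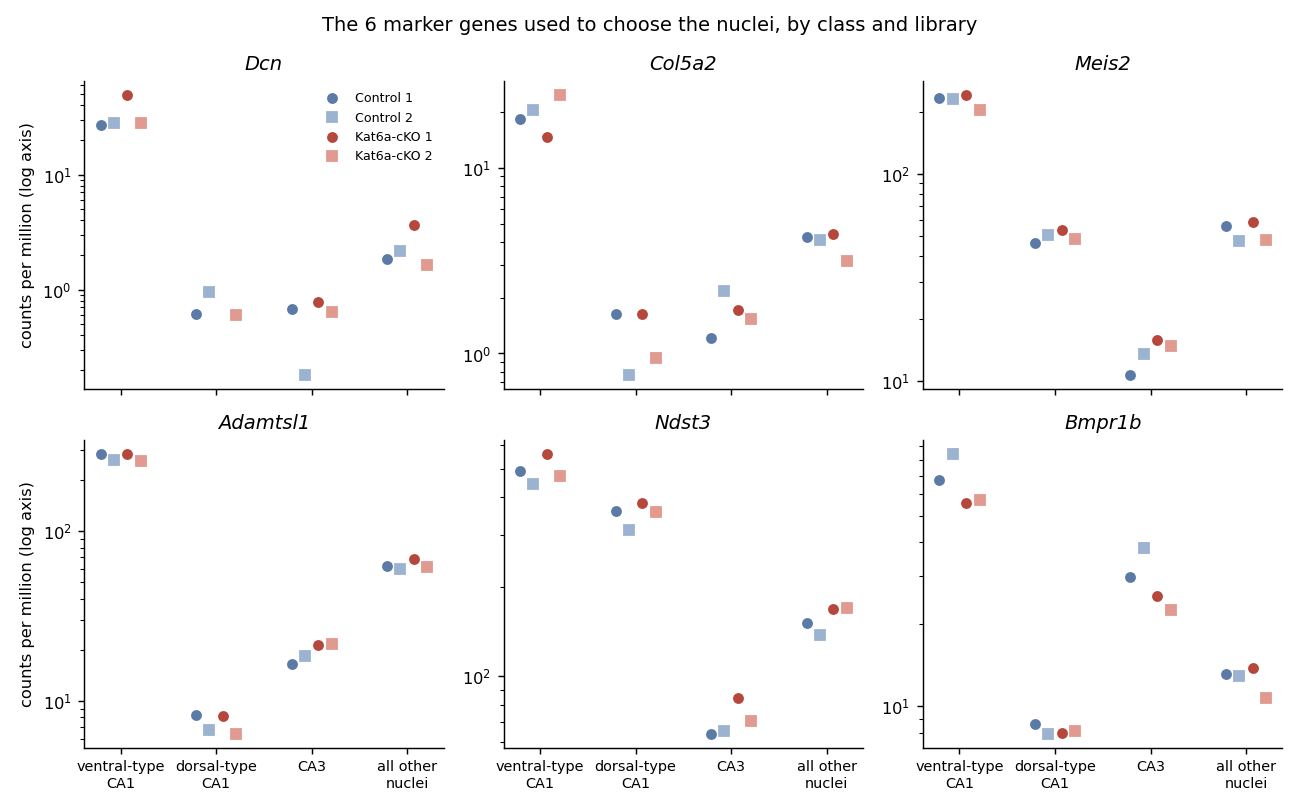
Level of each of the 6 marker genes in CPM (log axis) in ventral-type CA1, dorsal-type CA1, CA3 and all other nuclei (all nuclei outside the members), 1 point per library. Dcn is 26.9 to 49.1 CPM in the ventral-type nuclei and at most 0.955 CPM in the dorsal-type nuclei, where the value of 0 in Kat6a-cKO 1 cannot be drawn on the log axis.

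Only a minority of the members held the genes that name them. At least 1 UMI of Dcn was found in 769 members (29.7%), of Col5a2 in 458 (17.7%), of both in 203 (7.83%) and of neither in 1568 (60.5%). Meis2 and Adamtsl1 alone reached the sum of 5 UMIs in 2438 members (94.1%). Of the 6 genes, 3 were seen in 1353 members, 4 in 964, 5 in 260 and all 6 in 15.

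The share of members with a Dcn UMI was 23.9%, 26.8%, 38.3% and 27.8% in library order, and 0% to 1.61% in dorsal-type CA1 nuclei, whose median was 16132 to 17891.5 UMIs. With every nucleus thinned to 5000 UMIs the shares were 10.4%, 13.0%, 18.6% and 10.6% in the members and at most 0.483% in dorsal-type CA1 nuclei. Both shares were lower after thinning. The gap between the classes was set by the rules that chose them, and thinning does not test it.

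Nuclei near the threshold differed little. The 339 nuclei with a sum of 4 UMIs, just outside, held a mean of 0.198 UMIs of Dcn and 7.97 of Cpne4, a gene of CA3 neurons. The 317 nuclei with a sum of 5, just inside, held 0.148 and 6.99. Among the 392 members with a sum of 20 or more the means were 1.89 and 3.22.

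Clustering the members gave 16 sub-clusters, named from fixed marker lists where at least 3 markers, and at least 50% of a list, were raised 2-fold over all other nuclei with 5 CPM added to each level. A sub-cluster stayed unnamed where glial, vascular or inhibitory markers met the same bar, or where its 10 leading genes held more markers of another list than of its own. By the last of these, sub-cluster 9 (4 of 7 CA1 markers raised, with Calb1 of the upper-layer cortical list among its leading genes) and sub-cluster 10 (4 of 6 CA3 markers, with Calcrl of the hilar mossy list) stayed unnamed. Sub-clusters 1 to 5 were CA1 pyramidal-like and held 1769 members (68.2%). The CA1-like share was 68.1%, 65.4%, 70.0% and 69.0% in library order. These nuclei are called CA1-like members below, a set defined after the data had been seen.

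The remaining members were a mixture. Sub-cluster 6 was CA3-like with 192 nuclei (7.41%), sub-clusters 12 and 16 were deep-layer cortical-like with 31 and 12 nuclei, and sub-cluster 15 was hilar mossy-like with 14 nuclei. Kat6a-cKO 1 gave 11 of the 12 nuclei of sub-cluster 16. Sub-clusters 8, 13 and 14 carried markers of oligodendrocytes, astrocytes and microglia in 133, 25 and 24 nuclei, and 59.4% of the nuclei of sub-cluster 8 were called doublets. The label of a CA1 neuron therefore did not hold for all nuclei the rule takes. The CA1-like members carry it by the markers that named them, which is no separate test of it.

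The summed level of 6 CA1 pyramidal markers (Fibcd1, Wfs1, Pou3f1, Mpped1, Man1a and Gpr161) was 900.1 to 937 CPM in all members, 1070.4 to 1173 CPM in the CA1-like members and 957 to 1017 CPM in dorsal-type CA1 nuclei. These genes partly chose the dorsal-type nuclei and named the CA1-like sub-clusters, so the sums test nothing. They also do not stand for each marker. Members with a gate sum of 20 or more held a mean of 19.0 UMIs of Man1a and 3.97 of Mpped1. Fibcd1 was at 0.441, Wfs1 at 0.217 and Pou3f1 at 0.212 UMIs there. The 6 CA3 markers summed to 801 to 972 CPM in all members and to 309 to 408 CPM in the CA1-like members. The CA3-like sub-cluster held 3046 to 3319 CPM. Oligodendrocyte markers summed to 149 to 192 CPM and inhibitory neuron markers to 25.5 to 41.2 CPM in all members, with 1 of the 7 gene IDs of the 6 inhibitory markers at 0 in every library. The oligodendrocyte list includes St18, which stood at 876 CPM in sub-cluster 10 and at 34.4 CPM in the other members. Sub-cluster 10 had CA3 markers raised, so this sum cannot be read as oligodendrocyte RNA alone. No marker of astrocytes, microglia or endothelial cells was at 0 in all libraries.

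**Figure D2:**
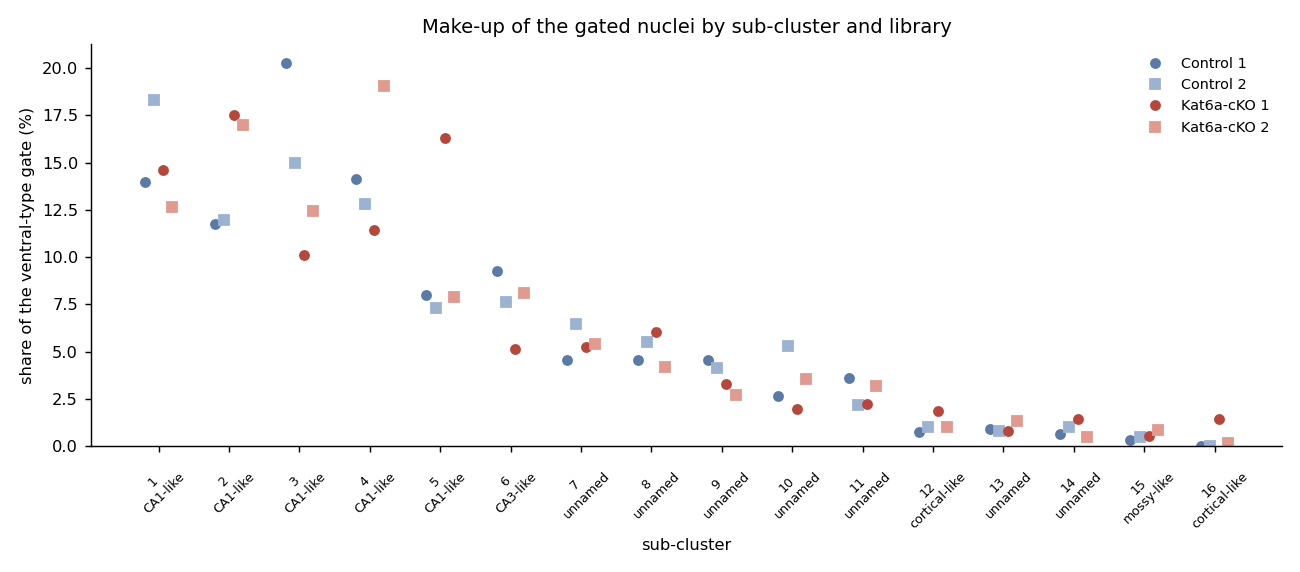
Share of the members of each library (percent, y axis) in each of the 16 sub-clusters (x axis), 1 point per library. Sub-cluster 5 holds 16.3% of the members of Kat6a-cKO 1 and at most 8.01% of those of the other libraries.

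The leading genes of a sub-cluster are those of largest fold over all other members. Sub-cluster 1 (385 nuclei) was led by Pde11a, a phosphodiesterase of cyclic nucleotides, with Necab1 and the transcription factor Etv1 among its leading genes. None of these is particular to it: sub-clusters 1 and 2 held Pde11a at 256 and 267 CPM, Necab1 at 147 and 170.3 CPM and Etv1 at 247 and 199 CPM. Dcn was at 37.4 CPM and Col5a2 at 1.47 CPM in sub-cluster 1, so Dcn was found there with little Col5a2.

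Sub-cluster 2 (381 nuclei) held both title genes, with Dcn at 107 CPM and Col5a2 at 75.4 CPM. It was led by Gpc6, a glypican that anchors heparan sulfate to the cell surface, at 720 CPM, with the adrenergic receptor gene Adra1a and Rspo2, a secreted activator of Wnt signalling. Rspo2 stood at 263 CPM in sub-cluster 2 and at 24.7 to 73.0 CPM in the other CA1-like sub-clusters.

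Sub-cluster 3 (370 nuclei) was lowest of the CA1-like sub-clusters in Dcn, at 2.96 CPM, and highest in Wfs1, a gene best known from dorsal CA1, at 34.9 CPM. Its leading genes 4921539H07Rik and Lrmp stood at 220.4 and 29.8 CPM there, and at 236 to 303 and 15.2 to 40.8 CPM in dorsal-type CA1 nuclei. These values go against the ventral-type label for sub-cluster 3. Single genes of this kind were also among the leading genes of the next sub-clusters: Dach1 stood at 54.6 CPM in sub-cluster 4 and at 56.6 to 94.4 CPM in dorsal-type CA1 nuclei, and B230110G15Rik at 109 CPM in sub-cluster 5 and at 113 to 129 CPM in dorsal-type CA1 nuclei. Sub-cluster 4 (367 nuclei) held Col5a2 at 38.9 CPM and Dcn at 17.2 CPM and was led by Sorcs1 and Ndst4. Sub-cluster 5 (266 nuclei) was led by Gm12128 and Gm36431, and its leading genes included Cntn5 and the histamine receptor gene Hrh3, which stood at 47.4 CPM there and at 2.33 to 9.65 CPM in sub-clusters 1 to 4. Dcn stood at 3.28, 6.74, 24.1 and 1.58 CPM in sub-cluster 5 in library order, and Col5a2 at 0 to 2.37 CPM. The members thus covered several kinds of CA1-like nuclei rather than 1 kind that expresses all 6 marker genes together.

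Of the unnamed sub-clusters without glial markers, sub-cluster 11 (72 nuclei) had the highest Dcn level of all, 209 CPM, with Pparg at 185 CPM and the neurotensin receptor gene Ntsr1 at 52.8 CPM. Sub-cluster 9 (95 nuclei) had the highest Bmpr1b level, 494 CPM. Sub-cluster 7 (140 nuclei) was high in genes that neuronal activity induces, with Bdnf at 267 CPM and Nr4a2 at 225 CPM. Sub-cluster 10 (85 nuclei) was high in Calcrl (234 CPM) and the serotonin receptor gene Htr2c (630 CPM), and had Cpne4 at 1037 CPM.

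**Figure D3:**
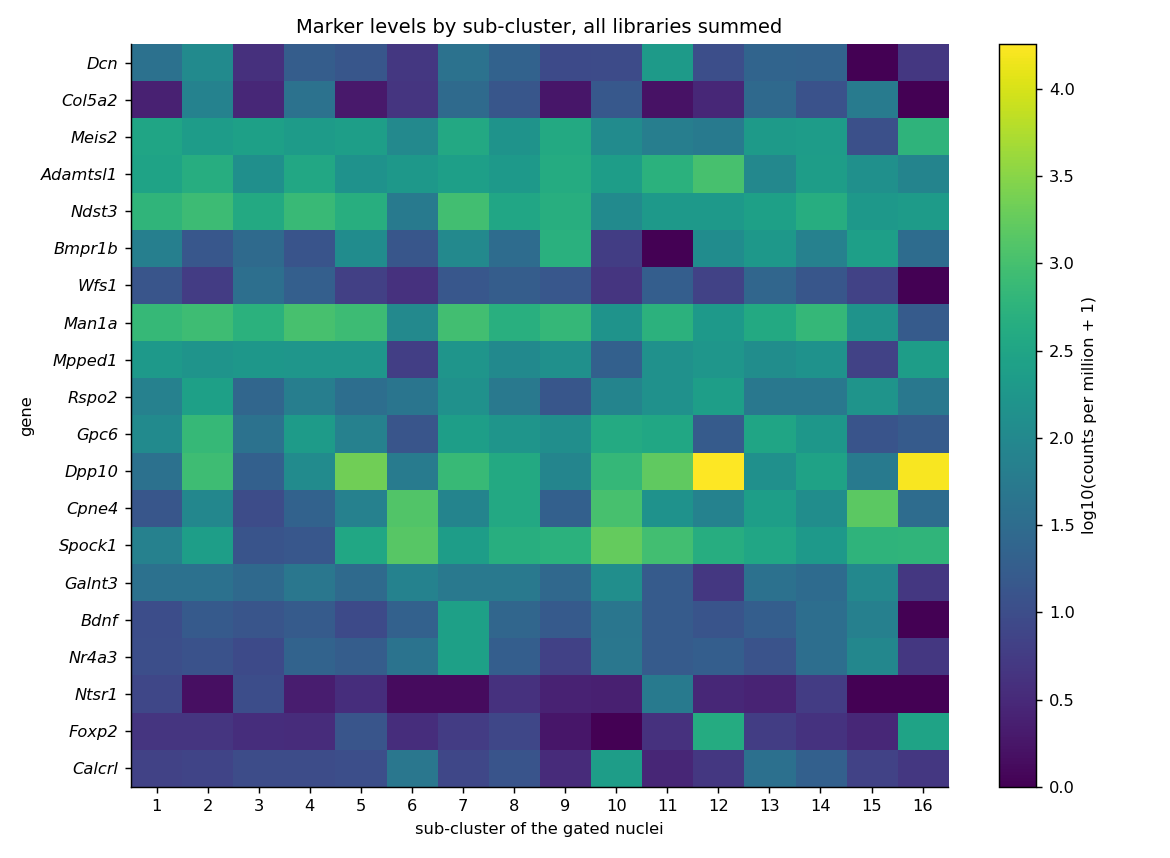
Level of marker genes (rows, log10 of CPM plus 1, colour) in each sub-cluster of the members (columns), with the libraries summed. Dcn and Col5a2 are both high in sub-cluster 2 (107 and 75.4 CPM), while sub-cluster 11 has Dcn at 209 CPM with little Col5a2, and Cpne4 marks sub-clusters 6, 10 and 15.

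Members made up 7.71% of the nuclei in Control 1 (exact Clopper-Pearson 95% interval 7.15% to 8.31%), 7.55% in Control 2, 9.0% in Kat6a-cKO 1 (8.40% to 9.63%) and 7.51% in Kat6a-cKO 2. The interval covers counting error only. The mean was 7.63% ± 0.116 (SD, n = 2) in Control and 8.26% ± 1.06 in Kat6a-cKO, a difference of 0.624 percentage points with a p of 1 in a two-sided exact permutation test, whose smallest possible p is 0.333. Without Kat6a-cKO 1 the difference was -0.123, so its direction rested on that library. Among members and dorsal-type CA1 nuclei together, members were 54.4%, 49.2%, 65.1% and 46.6%, and the groups overlapped (difference 4.05 percentage points, exact permutation p of 1, and -5.24 without Kat6a-cKO 1).

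Levels in CA1-like members were set beside those in dorsal-type CA1 nuclei to describe what goes with the marker genes. Both sets were chosen from these counts, so no test was made. With 1 CPM added to each level, 131 of 9856 genes with at least 5 CPM (1.33%) were at least 2-fold higher in the CA1-like members in all 4 libraries, and 40 (0.406%) at least 2-fold lower. In all members the counts were 200 (2.01%) and 34 (0.342%) of 9936 genes. Several of the genes that led among all members, such as Ccbe1 and Car10, were not past that fold in the CA1-like members.

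Adra1a, an alpha-1 adrenergic receptor gene, stood at 71.5, 63.4, 87.3 and 71.8 CPM in the CA1-like members and at 3.78, 5.06, 10.6 and 3.68 CPM in dorsal-type CA1 nuclei. Necab1, which encodes a neuronal calcium-binding protein, stood at 77.2, 101, 88.4 and 93.5 CPM against 6.50 to 10.3 CPM. Lrrtm4, an organizer of excitatory synapses, stood at 1830, 1575, 3170 and 2289 CPM against 158 to 434 CPM. All libraries of 1 class lay above all libraries of the other for each of these genes. They were chosen by a large fold of the same sign in all 4 libraries, so this gap comes with the choice and adds no support.

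Signalling genes of the R-spondin and TGF-beta families were among those higher in the CA1-like members. Rspo2 stood at 86.2, 92.7, 109 and 84.3 CPM against 14.9 to 23.8 CPM. Tgfb2, a ligand of the TGF-beta family, stood at 62.1, 55.8, 59.0 and 58.4 CPM against 10.6 to 13.3 CPM. Of 21 genes of the BMP and TGF-beta list with at least 5 CPM, 3 were past the fold upwards and 1 downwards, and of 18 genes of the R-spondin and Wnt list, 2 and 1.

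Over all genes, 1.33% were past the fold upwards and 0.406% downwards. Of 15 stress and affect receptor genes with at least 5 CPM, 2 were past it upwards and none downwards, of 7 collagens 1 and 1, and of 6 small leucine-rich proteoglycan and matrix genes none and 1. Htr2c, a serotonin receptor gene, stood at 129, 98.2, 92.3 and 105 CPM in the CA1-like members against 18.1 to 29.1 CPM. Of 21 genes of glutamate receptors, 4 were past the fold upwards and none downwards. Col6a1, a chain of type VI collagen, stood at 8.12, 6.81, 13.5 and 9.71 CPM against 0 to 0.764 CPM, whereas Col11a1 was lower, at 17.8 to 24.3 CPM against 117 to 149 CPM. Tenm3, a teneurin that guides the choice of synaptic partners in the hippocampus, stood at 542, 521, 801 and 636 CPM against 1699 to 2061 CPM. The 10 genes listed for ventral hippocampus summed to 291 to 342 CPM in the CA1-like members and to 142 to 161 CPM in dorsal-type CA1 nuclei. Of the 6 with at least 5 CPM, 1 was past the fold upwards (Htr2c) and none downwards, and their median log2 difference was 0.66, against 0.02 over all genes. Crhr1 of that list, a receptor of corticotropin-releasing hormone, stood at 22.0 to 24.1 CPM against 22.2 to 30.9 CPM. The 6 genes listed for dorsal CA1, some of which chose the dorsal-type nuclei, summed to 1781 to 1984 CPM in the CA1-like members. In dorsal-type CA1 nuclei they summed to 1900 to 2104 CPM. Of the 3 outside the rules with at least 5 CPM, none was past the fold either way, and their median log2 difference was -0.37.

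The change with genotype was tested on counts summed per library over the members, with the quasi-likelihood test of edgeR and Benjamini-Hochberg adjustment over all genes tested. The levels of single genes in whole sets of nuclei given from here on are CPM after TMM scaling, a correction for the composition of each library. Levels within a sub-cluster, summed levels of gene lists and the level of the entry for cre are plain CPM without it. The targeted gene, Kat6a, stood at 70.5, 67.8, 65.2 and 62.9 CPM in library order (log2 fold change -0.11, edgeR adjusted p = 0.809). Which exons the counted reads come from is not known here, so this count checks neither the deletion nor the labels.

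Of 15050 genes, 2 passed an adjusted p of 0.05 (0.0133%): Gm3279 and Mkx, both higher in Kat6a-cKO. At an unadjusted p under 0.05 there were 1179. DESeq2 called 33 genes on the same counts, both of these among them. For 37.5% of the genes the 2 Kat6a-cKO values lay outside the Control values (17.8% higher and 19.7% lower).

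Gm3279 is a long intergenic non-coding RNA (chromosome 6: 55684571 to 55694574, plus strand) that begins 3.31 kb from the start of Neurod6 (chromosome 6: 55677822 to 55681263, minus strand), the gene in which NEX-cre lies. Its level was 1.64, 1.36, 43.8 and 41.0 CPM in library order. Both Kat6a-cKO libraries were far above both Control libraries, with a log2 fold change of 4.81 (SE 0.16, edgeR adjusted p = 1.19e-06). It was also called in the CA1-like members (4.83), in dorsal-type CA1 nuclei (4.74, with 30 of 13681 genes or 0.219% called) and in CA3 nuclei (4.79, with 3 of 14528 or 0.0206%). The change in the members did not differ detectably from that in dorsal-type CA1 nuclei (difference 0.09, SE 0.33, edgeR adjusted p = 0.992).

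The promoters of these neighbours are shown because the start sites face away from each other across the interval next to the NEX-cre insertion. These are the 250 bases before each start in RefSeq (GRCm38.p6), with matches to the E-box letters CANNTG, searched on the strand shown of this palindromic motif, in capitals. Neurod6 lies at chr6:55681264-55681513 (minus strand) and Gm3279 at chr6:55684321-55684570 (plus strand).
Neurod6: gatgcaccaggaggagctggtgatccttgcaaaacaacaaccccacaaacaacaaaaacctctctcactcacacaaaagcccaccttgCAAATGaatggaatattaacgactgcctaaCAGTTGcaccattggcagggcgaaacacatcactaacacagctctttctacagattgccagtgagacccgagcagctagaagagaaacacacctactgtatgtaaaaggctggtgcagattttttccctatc
Gm3279: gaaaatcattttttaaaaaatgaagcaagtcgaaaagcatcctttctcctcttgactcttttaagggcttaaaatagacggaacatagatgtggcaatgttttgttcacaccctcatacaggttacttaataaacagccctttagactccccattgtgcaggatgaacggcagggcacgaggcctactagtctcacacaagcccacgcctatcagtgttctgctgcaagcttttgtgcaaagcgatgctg
The Neurod6 window holds 2 such matches and 3 CpG, and the Gm3279 window 0 and 6. Of 32851 promoters of this length, 66.2% hold at least 1 match, so the letters are common.

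Other features of that locus were measured in the same nuclei. The deposited matrices hold an entry named for cre, with 0 and 0 counts in the Control members and 36 and 13 counts in the Kat6a-cKO members. The mean of 1.58 CPM ± 0.847 (SD, n = 2) in Kat6a-cKO was at least 7.22-fold higher than the 0.219 CPM that 3 counts per Control library would give. Neurod6, a transcription factor of excitatory neurons, stood at 44.4, 41.3, 31.8 and 23.2 CPM (log2 fold change -0.63, SE 0.14, edgeR adjusted p = 0.244), so the groups did not overlap but the test was not passed.

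Mkx, or Mohawk, is a TALE homeodomain transcription factor known from tendon development. Its level in the members was 8.15, 9.09, 21.3 and 29.7 CPM. Both Kat6a-cKO libraries were higher, with a log2 fold change of 1.56 (SE 0.18, edgeR adjusted p = 0.0481). It was the only call among 9 tested genes of the TALE family, to which Meis2 belongs. Thinning all sums to the smallest library total gave 1.54 and an edgeR adjusted p of 0.0933, which ends the call. In dorsal-type CA1 nuclei Mkx was called as well (1.36, edgeR adjusted p = 0.0472), and the changes in both classes did not differ detectably (difference 0.25, SE 0.19, edgeR adjusted p = 0.932).

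In the CA1-like members 4 of 13517 genes were called (0.0296%), and the groups did not overlap for 37.6% of the genes (18.1% higher and 19.5% lower in Kat6a-cKO). Mkx stood at 6.25, 5.80, 21.9 and 28.6 CPM there (log2 fold change 2.06, SE 0.19, edgeR adjusted p = 0.00293). Without Kat6a-cKO 1 the change was 2.24. The rise was thus called without the CA3-like and other sub-clusters. In the absence of the library that stood apart its direction stayed, but that fit leaves 1 Kat6a-cKO library, so no call is read from it.

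By sub-cluster, and without TMM scaling, Mkx stood at 8.71, 4.19, 36.1 and 61.7 CPM in sub-cluster 4, at 18.3, 20.2, 45.1 and 36.3 CPM in sub-cluster 5, and at 4.16, 2.79, 9.46 and 28.0 CPM in sub-cluster 3. In sub-cluster 1, with 2, 7, 6 and 4 counts, the groups overlapped. The Kat6a-cKO values lay above the Control values in 4 of the 5 CA1-like sub-clusters, against 18.1% of genes apart upwards in the CA1-like members as a whole. Sub-cluster 2 was among the 4 with only 2, 6, 12 and 20 counts, and Control 2 and Kat6a-cKO 1 were at 4.14 and 4.71 CPM there. The sub-clusters share their libraries, so the same direction in several, here and for the genes below, does not repeat a result. The level in Control was highest in sub-cluster 5, which was enlarged in Kat6a-cKO 1. With equal numbers of nuclei per sub-cluster in every library the log2 fold change was 1.93 (edgeR adjusted p = 0.00172).

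Pcdh11x, an X-linked protocadherin, was called in the CA1-like members and in dorsal-type CA1 nuclei (0.99). In the CA1-like members it stood at 38.9, 32.0, 66.1 and 67.5 CPM (log2 fold change 0.91, SE 0.11, edgeR adjusted p = 0.0354). Over all members it stood at 44.0, 47.1, 76.3 and 69.8 CPM (0.68, edgeR adjusted p = 0.108). The Kat6a-cKO values were higher in sub-clusters 4 and 5 and lower in sub-cluster 2, and with equal numbers per sub-cluster the log2 fold change was 0.77 (edgeR adjusted p = 0.0515). Over 22 alternatives the change ranged from 0.62 to 1.11.

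Gpc5, a glypican, fell in the CA1-like members, where it stood at 893, 804, 507 and 542 CPM (log2 fold change -0.69, SE 0.09, edgeR adjusted p = 0.0409). The Kat6a-cKO values were lower in each of the 5 CA1-like sub-clusters, for example 935, 750, 506 and 587 CPM in sub-cluster 1. Over all members the change was -0.54 (690, 639, 465 and 451 CPM, edgeR adjusted p = 0.118), and without Control 1 the call in the CA1-like members was lost (-0.62, edgeR adjusted p = 0.176). Gpc5 stood at 2531 CPM in sub-cluster 13, which carried astrocyte markers, and the 6 astrocyte markers summed to 23.1, 17.8, 28.4 and 21.0 CPM in the CA1-like members, where the groups overlapped. Their part in the result was not tested.

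**Figure D4:**
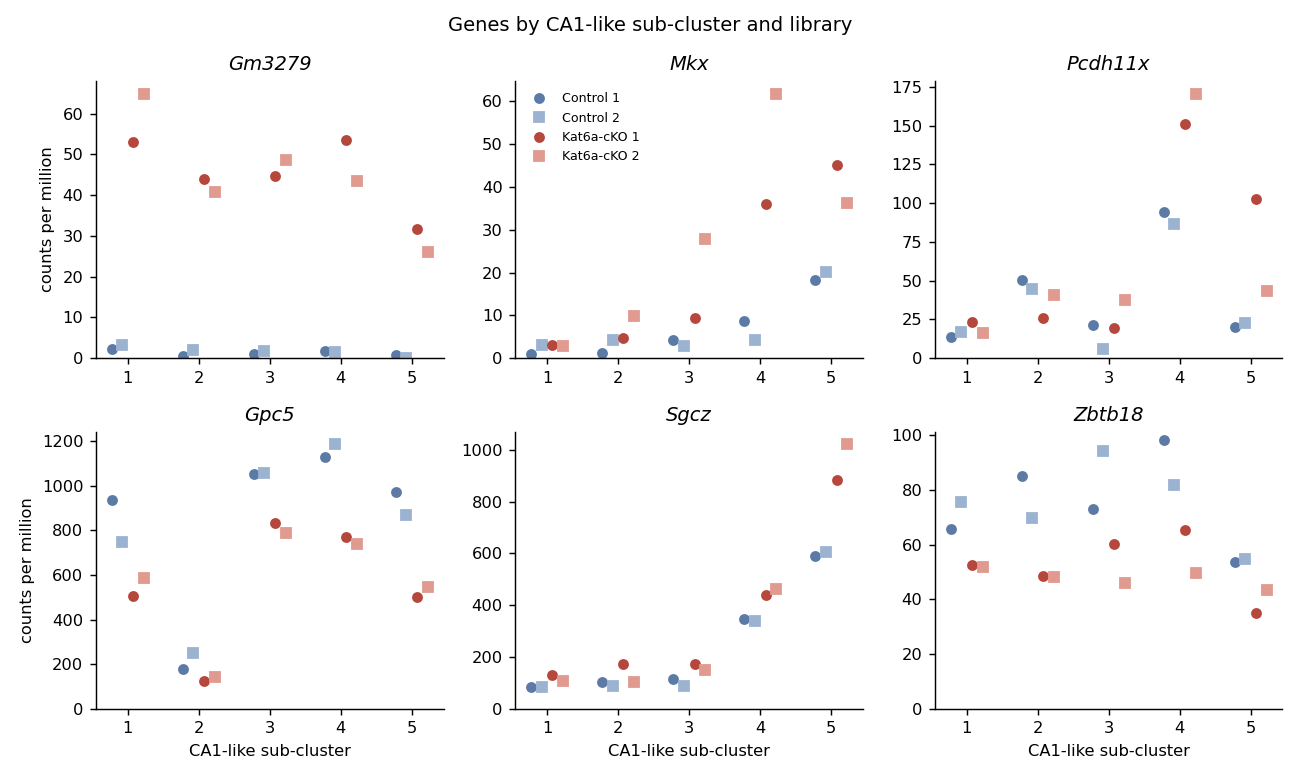
Level in CPM (y axes from 0) of 6 genes in the 5 CA1-like sub-clusters (x axes), 1 point per library. Gm3279 is higher and Gpc5 and Zbtb18 are lower in both Kat6a-cKO libraries in all 5 sub-clusters, and the Mkx groups are apart in sub-clusters 2 to 5.

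The genes next in order of p in all members did not pass. Sgcz, which encodes zeta-sarcoglycan, stood at 196, 177, 450 and 318 CPM (log2 fold change 1.04, edgeR adjusted p = 0.108). Astn2, an astrotactin, stood at 268, 214, 389 and 384 CPM (0.68, edgeR adjusted p = 0.118). Fhod3, an actin regulator, stood at 23.7, 25.3, 38.7 and 44.0 CPM (0.76), and Rin2 at 3.81, 4.72, 10.8 and 9.21 CPM (1.23). For all 4 genes both Kat6a-cKO libraries were higher than both Control libraries. The genes were chosen by small p, so this gap comes with the choice and adds no support.

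Zbtb18, a zinc-finger repressor needed for the differentiation of excitatory neurons, stood at 76.5, 72.9, 52.1 and 47.6 CPM (log2 fold change -0.58, edgeR adjusted p = 0.118) and was lower in Kat6a-cKO in each of the 5 CA1-like sub-clusters. Rpl23 and Rpl37, which encode ribosomal proteins, had changes of -0.76 and -0.80. Over 81 ribosomal protein genes, a list made after these values had been seen, none was called by edgeR (46 at an unadjusted p under 0.05, and 3 called by DESeq2), 71 had a negative change and the median was -0.40, against -0.0011 over all genes. The Kat6a-cKO values lay below the Control values for 60 of them, against 19.7% of all genes. The summed level, without TMM scaling, was 1214, 1376, 979 and 936 CPM in the members and 1503, 1688, 1080 and 1076 CPM in dorsal-type CA1 nuclei. It was 1311, 1364, 1015 and 954 CPM in CA3 nuclei. In all nuclei outside the members it was 1801, 1865, 1287 and 1230 CPM. The lower level was thus confined neither to the members nor to CA1. In dorsal-type CA1 nuclei edgeR called 7 of the 81 genes lower, with a median of -0.52, against 30 of 13681 genes (0.219%) called there in all. Genes of the mitochondrial genome summed to 570, 628, 579 and 448 CPM in the members, and the part of RNA quality in these values was not tested.

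Sema3d, a secreted semaphorin that guides axons, stood at 13.3, 11.6, 5.66 and 5.81 CPM in the members (log2 fold change -1.12, edgeR adjusted p = 0.118). In the CA1-like members it was low, at 2.59, 2.05, 1.90 and 0.855 CPM (-0.70, edgeR adjusted p = 0.734). In sub-cluster 11, the small sub-cluster with the highest Dcn level, which was singled out after its values had been seen, Sema3d had 97, 36, 5 and 4 counts, or 179, 126, 13.7 and 9.20 CPM, over 23, 13, 17 and 19 nuclei. In sub-cluster 10 it had 24, 61, 29 and 37 counts, with overlapping groups, so the sub-cluster with the most counts was 11 in Control 1 and 10 in Control 2.

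The other genes that an earlier analysis of these libraries reported for CA1 were not called in the members. Zfpm2, a cofactor of GATA factors, had a log2 fold change of 0.27 (edgeR adjusted p = 0.378), Ephb1, a receptor of ephrins, 0.34 (0.344 by the same test), and Crispld1 -0.53 (0.575). Zfpm2 was called in dorsal-type CA1 nuclei (0.67), and the difference from the members missed the threshold (-0.39, edgeR adjusted p = 0.0523). Ttr had 2, 115, 5 and 4 counts, so that Control 2 held nearly all of them, and its genotype values were read no further.

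Of the marker and pathway lists, only the TALE family and 2 lists that include Gm3279 or Mkx held an edgeR call in the members. Neither of those 2 lists (the NEX-cre locus, and genes changed in CA1 in an earlier analysis of these libraries) is independent evidence. Among lists with no edgeR call, DESeq2 called 2 of 24 glutamate receptor genes, 1 of 45 axon guidance genes and 1 of 7 forebrain excitatory markers. It also called 3 of the 81 ribosomal protein genes, against 33 of 15050 genes in all. Over all 15050 genes, 17.8% lay apart upwards, 19.7% downwards and 1179 had an unadjusted p under 0.05. The collagens (14 tested) had a median log2 fold change of 0.21, with 13 above 0, 6 with both Kat6a-cKO values above Control, 4 at an unadjusted p under 0.05 in edgeR and 0 called by DESeq2. The 20 immediate early genes had a median of 0.30, with 16 above 0, 7 apart, 4 at an unadjusted p under 0.05 in edgeR and 0 called by DESeq2. The 6 dorsal CA1 markers had a median of -0.37, with all 6 below 0, 5 apart, 3 at an unadjusted p under 0.05 in edgeR and 0 called by DESeq2. Their median was -0.29 in dorsal-type CA1 nuclei (3 tested) and -0.30 in CA3 nuclei (4 tested). Sub-cluster 3, the highest of the CA1-like sub-clusters in Wfs1, made up less of both Kat6a-cKO libraries, and its part in the result was not tested. The 7 CA1 pyramidal markers, which share Wfs1, Fibcd1 and Man1a with the dorsal list, had a median of -0.06. Of these, 5 were below 0, 4 apart downwards and 3 at an unadjusted p under 0.05 in edgeR, with 0 called by DESeq2. The 33 genes of BMP and TGF-beta signalling had a median of 0.03, and the 33 R-spondin and Wnt genes a median of 0.01. The 21 genes of heparan sulfate synthesis had a median of 0.09 with 17 above 0. Rspo2 stood at 85.1, 81.9, 99.6 and 77.0 CPM (0.08, edgeR adjusted p = 0.916), with overlapping groups.

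The change with genotype in the members was then compared with that in dorsal-type CA1 nuclei of the same libraries, by an interaction term in a fit that holds each library's own level. Of 15190 genes, 22 differed at an adjusted p of 0.05 (0.145%), 14 with the more positive change in the members and 8 with the more negative. With the CA1-like members 19 of 14272 genes differed (0.133%), and 10 of the 22 were among them.

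Dpp10, an auxiliary subunit of A-type potassium channels, stood at 469, 420, 1464 and 705 CPM in the members and at 118, 67.1, 129 and 82.6 CPM in dorsal-type CA1 nuclei. The Kat6a-cKO libraries were higher in the members, most of all Kat6a-cKO 1, while the groups overlapped in dorsal-type CA1. The change was 1.02 more positive in the members on the log2 scale (SE 0.12, edgeR adjusted p = 7.75e-05). It was 0.79 more positive without Kat6a-cKO 1, 0.90 with the CA1-like members, and 0.48 with equal numbers per sub-cluster (edgeR adjusted p = 2.63e-06). Dpp10 stood at 18091 and 16164 CPM in the deep-layer cortical-like sub-clusters 12 and 16 and at 2196 CPM in sub-cluster 5, which made up more of Kat6a-cKO 1 than of the other libraries. Within sub-cluster 5 it stood at 1731, 1265, 2689 and 2387 CPM. The change within the members alone was 1.29 (SE 0.26) and did not pass (edgeR adjusted p = 0.184).

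Mgat4c, a gene related to N-acetylglucosaminyltransferases, differed the other way. It stood at 1225, 1168, 1152 and 1261 CPM in the members, where the groups overlapped, and at 296, 258, 517 and 475 CPM in dorsal-type CA1 nuclei, where both Kat6a-cKO libraries were higher. In the CA1-like members it stood at 817, 778, 904 and 867 CPM, so both Kat6a-cKO libraries were higher there too (log2 fold change 0.15, edgeR adjusted p = 0.684). The same held in 3 of the 5 CA1-like sub-clusters, for example 516, 487, 679 and 724 CPM in sub-cluster 3. The difference was -0.81 (SE 0.07, edgeR adjusted p = 4.6e-08), and -0.68 with the CA1-like members (edgeR adjusted p = 1.01e-08). Gcnt2, a glycosyltransferase, was similar in form, with 42.2, 43.0, 45.7 and 43.9 CPM in the members and 20.2, 19.3, 32.1 and 35.8 CPM in dorsal-type CA1 nuclei (difference -0.71, edgeR adjusted p = 0.0055). With the CA1-like members the difference was -0.60 (edgeR adjusted p = 0.0522).

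Pde11a, the leading gene of sub-cluster 1, stood at 94.8, 105, 138 and 86.8 CPM in the members and at 38.4, 62.0, 42.6 and 23.5 CPM in dorsal-type CA1 nuclei. The groups overlapped in both classes, and the changes differed by 0.80 (SE 0.13, edgeR adjusted p = 0.0024). Without Control 2 the difference was 0.47 (edgeR adjusted p = 0.0622), which ends the call. Brinp3 stood at 70.3, 37.1, 133 and 54.2 CPM in the members and at 73.7, 70.9, 74.7 and 44.6 CPM in dorsal-type CA1 nuclei, a difference of 1.06 (SE 0.17, edgeR adjusted p = 0.0024) that was 0.71 with the CA1-like members (edgeR adjusted p = 0.0409). Kat6a-cKO 1 was the high library, and 519 of its Brinp3 counts lay in the 11 nuclei it gave to sub-cluster 16 and 625 in sub-cluster 5. Without Kat6a-cKO 1, in a fit that leaves 1 Kat6a-cKO library, the difference was 0.73, and over 10 alternatives it ranged from 0.63 to 1.52.

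Several of the differences were not called with the CA1-like members. Rerg, a Ras-like GTPase, stood at 40.4, 45.5, 34.4 and 40.7 CPM in the members and at 15.5, 14.6, 5.76 and 6.22 CPM in dorsal-type CA1 nuclei, where it fell with genotype (difference 1.16, edgeR adjusted p = 0.00187). With the CA1-like members the difference was 0.89 (edgeR adjusted p = 0.379). In the CA3-like sub-cluster 6 Rerg stood at 184, 192, 240 and 165 CPM, without TMM scaling. Its Kat6a-cKO values lay below the Control values in 3 of the 5 CA1-like sub-clusters (1, 3 and 4) and overlapped in 2. Over all genes, 19.5% lay apart downwards in the CA1-like members as a whole. In sub-cluster 5 Rerg had 21, 7, 54 and 4 counts. Sema3d went from -2.03 to -1.696 (edgeR adjusted p = 0.524), Plppr1 from 0.75 to 0.64 (0.147 by the same test) and Arhgef6 from -0.64 to -0.54 (0.156), so that for these genes the call was lost while the direction stayed. Much of the size stayed for Plppr1 and Arhgef6. Sema3d had at most 8 counts per library in any of the sub-clusters 1 to 5. Its difference also holds the change in dorsal-type CA1 nuclei and is not a change of that size in the CA1-like members. Spock1 went from -0.77 to -0.22 (edgeR adjusted p = 0.831), but was -0.52 and called with equal numbers per sub-cluster (edgeR adjusted p = 0.0151). Plppr1 was 0.32 without Kat6a-cKO 1 (edgeR adjusted p = 0.886).

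**Figure D5:**
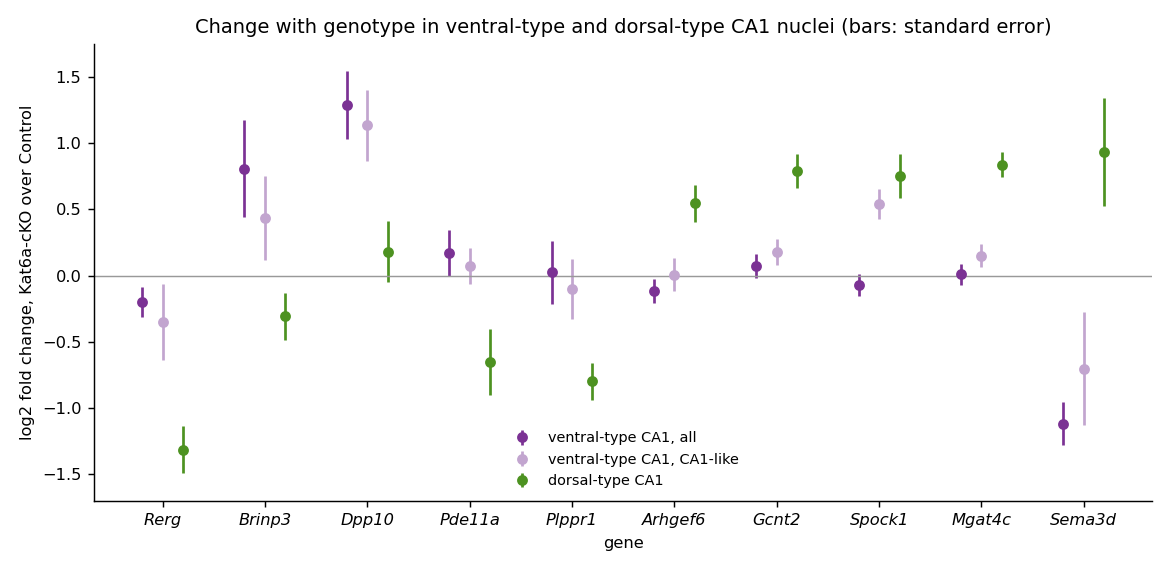
Log2 fold change of Kat6a-cKO over Control (y axis, bars are standard errors of the edgeR fit) for 10 genes whose change differed between all ventral-type and dorsal-type CA1 nuclei, in all members, CA1-like members and dorsal-type nuclei. Mgat4c is near 0 in the members (0.01) and at 0.84 in the dorsal-type nuclei, and Spock1 is at -0.07 in all members but at 0.54 in the CA1-like members.

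Against CA3 nuclei the change in the members differed for 41 of 15560 genes (0.263%), 32 of them more positive in the members. Mkx was among them. In CA3 nuclei it stood at 59.7, 40.8, 49.1 and 41.6 CPM, where the groups overlapped, and the change in the members was 1.69 more positive (SE 0.23, edgeR adjusted p = 0.00554). Fhod3 (difference 0.69, edgeR adjusted p = 0.00812) and Sgcz (0.46, edgeR adjusted p = 0.0309) also differed. The count rested on 1 library, since only 3 genes were called without Control 1.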

How the data were processed

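The authors deposited raw counts of UMIs per gene and barcode for 4 libraries of nuclear RNA, with 55422 gene IDs, per the file headers and values. Seurat 4.0.1 and the build mm10 are named in the submitters' processing notes, and the aligner is not given in the sources used here. Symbols were assigned by Ensembl ID, and positions are those of GENCODE M21 where ID and version matched. Members were found by the rule given above, and their counts summed per library.

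The members and all gene lists were chosen with earlier results of these data known. Sums were tested in R 4.3.3 with edgeR 4.0.16 (filterByExpr, TMM, quasi-likelihood F test, Benjamini-Hochberg adjustment, adjusted p under 0.05), leaving out the genes of the rules. A gene of the dorsal-type CA1 rule, also a CA1 marker used in naming sub-clusters, is not reported here. DESeq2 1.42.0 was an alternative. The scripts were tested on simulated data. Free RNA was estimated at 2.38% to 5.88% of the member counts. Sub-clusters were found with scanpy 1.11.5 and leidenalg 0.10.2. Exact permutation tests used scipy 1.17.1.

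Genes named were the genes of the rule, the NEX-cre locus genes, all genotype calls, the 10 genes of smallest p among those not called, the 5 largest interaction differences in each direction, the 15 largest differences from dorsal-type CA1 each way, the most abundant genes of each list, and genes reported for CA1 earlier. Not all of these are described. Other genes, among them those that lead a sub-cluster and the listed genes set against dorsal-type CA1, were chosen after their values were seen.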

Additional observations from a re-analysis of the deposited data

Results flagged for a closer look

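The change with genotype differed between the ventral-type and dorsal-type CA1 nuclei for 22 genes and between the ventral-type CA1 and CA3 nuclei for 41 genes, by the interaction term of the edgeR quasi-likelihood fit. All of these comparisons share their libraries. The change in the ventral-type nuclei was more positive than in the dorsal-type CA1 nuclei for Rerg (1.16), Brinp3 (1.06), Dpp10 (1.02), Pde11a (0.80) and Plppr1 (0.75), on the log2 scale. It was more negative for Sema3d (-2.03), Mgat4c (-0.81), Spock1 (-0.77), Gcnt2 (-0.71) and Arhgef6 (-0.64). Among these 10 genes, Brinp3, Dpp10, Pde11a and Mgat4c also passed with the CA1-like members. Sema3d had 97 and 36 counts in Control and 5 and 4 in Kat6a-cKO in sub-cluster 11.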

How the results depend on the processing

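With 2 libraries a group, the number of calls was the least stable value. The 2 genotype calls became 33 with DESeq2, 312 with no filter on low counts, 5 without doublets, and 1 with no TMM scaling, at least 10000 UMIs, a gate sum of at least 10, Dcn required, thinning, or free RNA subtracted. Leaving out 1 library gave 10 to 159 calls. With the CA1-like members, chosen after seeing the data, there were 4 calls, 6 with equal numbers per sub-cluster, and 7, 12, 101 and 495 without Control 1, Control 2, Kat6a-cKO 1 and Kat6a-cKO 2; the lone library of a group is then assumed to vary like the others. With the replicate number as a block there were 121 calls; the labels give no pairing, and deviations of same-numbered libraries correlated at 0.108 over 2 pairs, so no call rests on the block.

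The 22 differences from dorsal-type CA1 became 78 with no filter, 13 with thinning, 38 with equal numbers per sub-cluster, and 44 to 135 without 1 library. The 41 differences from CA3 became 206 with no filter, 17 with the CA1-like members, 22 with equal numbers, and 3 to 51 without 1 library. The difference in the share of members, 0.624, ranged from -0.123 to 1.37 with 1 library left out and was -0.0608 at a gate sum of at least 10 and -0.110 with nuclei thinned, and that among CA1 nuclei -5.24 without Kat6a-cKO 1.

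Gm3279 passed under 22 of 22 alternatives (4.60 to 5.10) and Mkx under 15 of 22 (1.21 to 2.27). Rspo2 ranged from -0.12 to 0.26 with 1 library left out and changed direction with Dcn required (-0.22), in sub-clusters with a CA1 marker raised (-0.22), with equal numbers (-0.25) and in CA1-like members without Kat6a-cKO 1 (-0.092), and Rerg in CA1-like members without Kat6a-cKO 2 (0.048). None of these passed. The causes were not tested.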
